A study of Mus musculus with 35 samples.

Results

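The comparison described here sets lin- HSPCs that expressed G-NHA9Midi against lin- HSPCs that expressed full-length G-NHA9, with 10 of the 35 libraries of the series as its members (5 of each construct), chosen by the genotype that the labels give. NUP98–HOXA9 (NHA9) is a leukemia fusion oncoprotein that joins the N-terminal region of the nucleoporin NUP98, an intrinsically disordered region rich in phenylalanine–glycine (FG) motifs, to the DNA-binding homeodomain part of the transcription factor HOXA9. FG motifs bind one another weakly, and proteins that carry many of them can gather into condensates. In the study's construct sequences, full-length NHA9 held 38 FG motifs and the Midi form 21, because the Midi form starts 225 residues further into the NUP98 part and lacks the 17 FG motifs before that point. The omitted stretch also holds the GLEBS domain, which binds proteins in its own right, so that the loss of FG motifs and the loss of this domain cannot be told apart. Both constructs kept the HOXA9 homeodomain and carried an mEGFP tag, and the labels write them as G-NHX9 and G-NHX9-midi.

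The cells were lineage-negative bone marrow cells of mice, that is, marrow from which cells with markers of the mature blood lineages had been removed. They were transduced with a lentivirus, sorted for its fluorescent protein and grown for 1 week in Methocult M3434, a methylcellulose medium for colony growth, with 10 ng/mL GM-CSF, and RNA was taken after this first plating without further treatment. The label age of the mice was 8 weeks for 9 of the 10 libraries and 11 weeks for G-NHA9 replicate 1. That of the empty vector mice was 8 weeks for replicates 1 to 3, 9 weeks for replicate 4 and 10 weeks for replicate 5. No label says which libraries came from the same mouse. The p-values below therefore rest on the spread between libraries of a condition, pooled over all 35 libraries, and part of it may be technical. Transduced primary cells of this kind are a mixture that keeps differentiating in culture, and the expressed fusion comes from the vector in addition to the cells' own *Nup98* and *Hoxa9*. The empty vector libraries, 5 in number, are given beside the results as the background level.

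*Hox* genes encode homeodomain transcription factors that lie in clusters on the chromosomes, and in blood formation the genes of the A and B clusters are active in stem cells and early progenitors and are shut off as cells mature. TALE homeodomain proteins (the MEIS, PBX and PKNOX families) bind DNA together with HOX proteins. *Meis1* and *Pbx3* are well-known partners of HOXA9 in acute myeloid leukemia.

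Total counts lay between 32201151 and 50617785 in the 10 libraries, and 3 counts corresponded to 0.0598 to 0.0900 CPM (counts relative to library size, with edgeR's TMM scaling). Correlations of log2 CPM between libraries were at least 0.983 within G-NHA9Midi and 0.971 within G-NHA9, and between 0.954 and 0.979 across the 2 constructs. G-NHA9 replicate 5 stood lowest of its group in the summed CPM of ribosomal protein genes (39204, others 53496 to 65725) and of macrophage genes (9229.6, others 16208 to 24309.9), and results that rest on it are given without it as well. Levels below are mean CPM ± SD over 5 libraries. Fold changes are log2 values of G-NHA9Midi over G-NHA9, and a gene was called when its p-value, from the quasi-likelihood test of edgeR, stayed under 0.05 after Benjamini-Hochberg adjustment over all 17166 tested genes.

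Between the 2 constructs, 3378 genes were called (19.7% of those tested), 1459 higher (8.5%) and 1919 lower (11.2%) in G-NHA9Midi cells. These 2 shares are the ones to set beside every count of a gene list below. The larger changes were mostly losses. An absolute log2 fold change of at least 1 was reached by 296 of the higher and 1069 of the lower genes (7.95% of the tested genes in all). The 5 libraries of one construct lay entirely above or below those of the other for 2243 genes (13.1%), among them 2011 called genes (800 higher and 1211 lower). Without G-NHA9 replicate 5, 925 genes were higher and 1592 lower, and when only the 10 libraries were fitted, 751 and 1536.

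**Figure D1:**
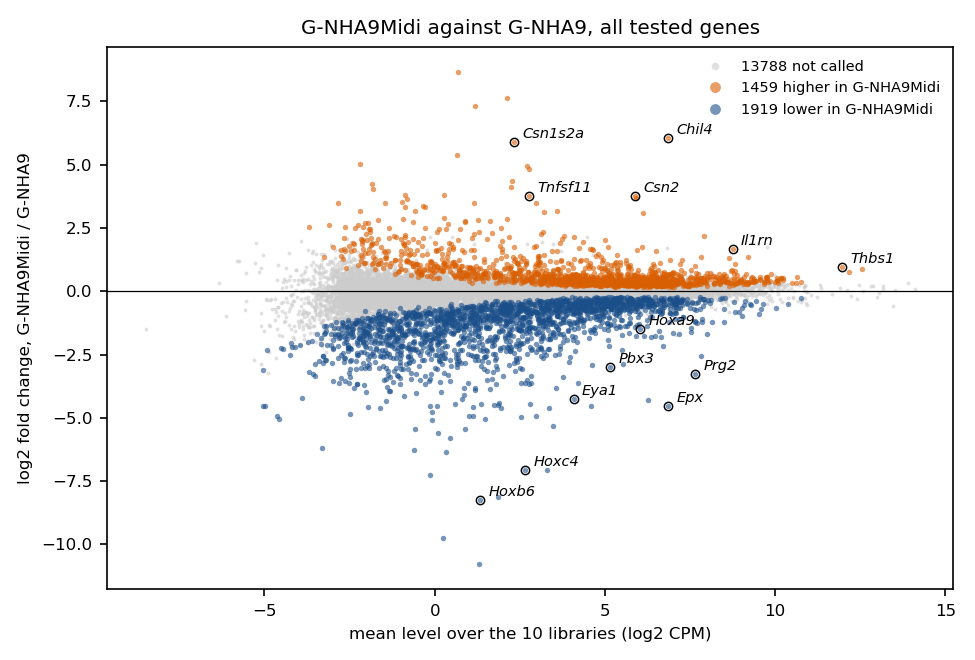
Each point is a tested gene, with its mean level over the 10 libraries on the x axis (log2 CPM) and its log2 fold change, G-NHA9Midi over G-NHA9, on the y axis, and colored points are the called genes. The cloud reaches further down than up, with 1069 called genes at or below a log2 fold change of -1 and 296 at or above 1, and *Hoxc4* and *Hoxb6* lie near its lower edge.

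Expression of the *Hox* clusters was lower with the Midi construct, and the losses were uneven along the clusters. Of 21 tested *Hox* cluster genes, 17 were lower, 4 (*Hoxa2*, *Hoxa7*, *Hoxb2* and *Hoxb4*) were not called, and none was higher, beside 11.2% of all tested genes called lower. All *Hox* cluster genes of the table together, tested or not, reached 221 ± 12.5 CPM with G-NHA9, 71.3 ± 11.3 CPM with G-NHA9Midi and 8.75 ± 1.11 CPM with the empty vector (SD, n = 5 each). The 5 sums were 231, 232, 201, 222 and 218 CPM with G-NHA9 and 67.4, 86.0, 76.5, 55.5 and 71.3 CPM with G-NHA9Midi, so every Midi library lay below every full-length library and above every empty vector library. Without *Hoxa9*, whose count could include RNA of the constructs themselves, the sums were 124 ± 14.0 and 36.8 ± 4.23 CPM (SD, n = 5 each), and 7.78 ± 1.12 CPM (SD, n = 5) with the empty vector.

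The C cluster and the middle of the B cluster fell to levels near those of empty vector cells. *Hoxc4* (ENSMUSG00000075394.4, chromosome 15, 103018934 to 103036852, plus strand) was at 11.8, 12.5, 12.3, 13.5 and 12.8 CPM in the 5 G-NHA9 libraries and at 0.0598, 0.0900, 0.123, 0.107 and 0.0824 CPM in the 5 G-NHA9Midi libraries (log2 fold change -7.06, SE 0.39, edgeR adjusted p = 1.2e-14). *Hoxc6* was at 15.5, 17.3, 14.6, 25.4 and 25.4 CPM against 0.0399, 0.120, 0.266, 0.107 and 0.185 CPM (log2 fold change -7.05, SE 0.47, edgeR adjusted p = 1.1e-12). Neither gene's groups overlap, and both Midi means (0.0924 ± 0.0240 and 0.144 ± 0.0857 CPM) are close to the level of 3 counts, with 0.0204 ± 0.0203 and 0.0271 ± 0.0371 CPM in empty vector cells.

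*Hoxc5* held 5 counts in all over the 5 Midi libraries against 1422 over the 5 G-NHA9 libraries, a ratio of levels of 316 (95% exact binomial interval, 135 to 974). For *Hoxb6* (ENSMUSG00000000690.5, chromosome 11, 96292476 to 96301569, plus strand) the counts were 3 and 1011, a ratio of 374 (95% exact binomial interval, 128 to 1817). These intervals cover counting error only. *Hoxc5* is annotated over *Hoxc6*, *Hoxc8*, *Hoxc9* and *Hoxc10* on the same strand, so reads in the shared exons could have been left out or placed on either gene. *Hoxc8* fell from 3.91 ± 0.720 to 0.127 ± 0.0402 CPM (log2 fold change -4.94), and its groups do not overlap.

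In the B cluster, *Hoxb5*, *Hoxb7* and *Hoxb8* fell with *Hoxb6*. *Hoxb8*, a gene able by itself to keep myeloid progenitors in an immature state, was at 3.17, 2.96, 2.46, 3.19 and 6.42 CPM in G-NHA9 libraries and 0.140, 0.0600, 0.0818, 0.0802 and 0.0412 CPM in G-NHA9Midi libraries (log2 fold change -5.43, SE 0.44, edgeR adjusted p = 7.9e-11). Empty vector cells had 0.0759 ± 0.0535 CPM. *Hoxb5* went from 2.7 ± 0.933 to 0.0446 ± 0.0302 CPM (log2 fold change -5.81), *Hoxb7* from 2.46 ± 0.577 to 0.0273 ± 0.0326 CPM (-6.35) and *Hoxb9* from 0.341 ± 0.0875 to 0.0916 ± 0.0251 CPM (-1.86). The differences of *Hoxb2* to *Hoxb4* were smaller in log2 than those of *Hoxb5* to *Hoxb8*.

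*Hoxb4*, a self-renewal gene of blood stem cells, was at 8.39, 7.17, 6.29, 8.33 and 6.97 CPM with G-NHA9 and 5.62, 5.70, 6.20, 5.30 and 6.32 CPM with G-NHA9Midi. Its groups overlap, the gene was not called (log2 fold change -0.35, edgeR adjusted p = 0.17), and both means lay above the 3.73 ± 0.713 CPM of empty vector cells. *Hoxb3* fell from 6.34 ± 0.415 to 2.77 ± 0.346 CPM (log2 fold change -1.19), and remained above the 0.619 ± 0.308 CPM of the empty vector. *Hoxb2* was at 0.420 ± 0.148 and 0.220 ± 0.0563 CPM and was not called (edgeR adjusted p = 0.083).

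In the A cluster, 6 of the 9 tested genes had log2 fold changes between -1.48 and -0.95. *Hoxa9* (ENSMUSG00000038227.15, chromosome 6, 52223100 to 52231089, minus strand) was at 108, 113, 96.5, 85.8 and 79.3 CPM with G-NHA9 and 30.6, 44.4, 37.8, 25.5 and 34.5 CPM with G-NHA9Midi (log2 fold change -1.48, SE 0.31, edgeR adjusted p = 0.00076), against 0.975 ± 0.221 CPM with the empty vector. Because both constructs carry the homeodomain part of HOXA9, reads from vector RNA could have been counted on *Hoxa9*, and how much was not tested. *Nup98*, the other fusion partner, was at 171 ± 27.0 and 167 ± 17.5 CPM with overlapping groups (edgeR adjusted p = 0.87).

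Among the A cluster genes not carried by the constructs, *Hoxa5* was at 16.2, 10.8, 8.76, 9.74 and 14.9 CPM with G-NHA9 and 4.60, 7.77, 5.48, 3.74 and 4.74 CPM with G-NHA9Midi (log2 fold change -1.20, SE 0.24, edgeR adjusted p = 0.0005). The Midi mean was still well above the 0.180 ± 0.0673 CPM of empty vector cells. *Hoxa3*, *Hoxa4* and *Hoxa6* changed by log2 fold changes of -1.36, -0.95 and -1.37. *Hoxa3* is annotated across *Hoxa4*, *Hoxa5* and *Hoxa6* on the same strand, and *Hoxa4* was no longer called without G-NHA9 replicate 5 (edgeR adjusted p = 0.063).

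*Hoxa7* and *Hoxa10* mark the extremes of this cluster. *Hoxa10*, next to *Hoxa9*, was at 4.03, 4.63, 3.68, 5.49 and 3.36 CPM with G-NHA9 and 0.239, 0.300, 0.389, 0.241 and 0.330 CPM with G-NHA9Midi (log2 fold change -3.80, SE 0.42, edgeR adjusted p = 5e-08). *Hoxa7* was at 21.8, 19.2, 19.4, 17.4 and 16 CPM and 15.2, 15.5, 15.5, 10.7 and 12.7 CPM in the same order. Every Midi library was below every full-length library for *Hoxa7*, but the difference was not called (log2 fold change -0.43, SE 0.33, edgeR adjusted p = 0.39), and both means exceeded the 0.581 ± 0.374 CPM of the empty vector. With only the 10 libraries in the fit, where the spread is estimated from these 2 conditions alone, *Hoxa7* was called (edgeR adjusted p = 0.031). *Hoxa2*, at 1.47 ± 0.657 and 0.916 ± 0.293 CPM, was not called either (edgeR adjusted p = 0.16).

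**Figure D2:**
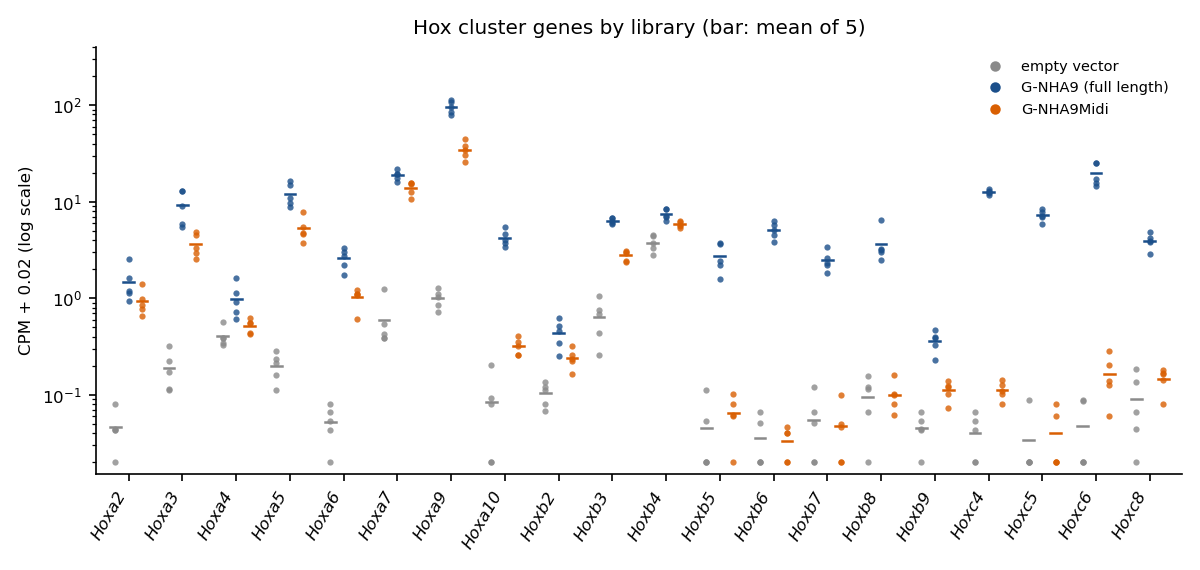
Points are the CPM of each library (plus 0.02, on a log scale) for 20 of the 21 tested *Hox* cluster genes in empty vector, G-NHA9 and G-NHA9Midi cells, and bars are means of 5. From *Hoxb5* to *Hoxb8* and in the C cluster the Midi points lie with the empty vector points near the level of 3 counts, while *Hoxa7* (13.9 ± 2.16 CPM) and *Hoxb4* (5.83 ± 0.426 CPM) stay near the full-length points.

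By cluster, 7 of 9 A genes were lower (median log2 fold change -1.20), 6 of 8 B genes (-3.64) and 4 of 4 C and D genes (-7.05, or -6.86 with *Hoxc5* at the limit of 3 counts per library). The median over all tested genes was 0.00. The 4 tested genes of the last list were all of the C cluster.

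Of the 10 tested TALE genes, 5 were lower and 2 higher. *Pbx3* (ENSMUSG00000038718.15, chromosome 2, 34171457 to 34373142, minus strand) had the smallest p-value of all tested genes. It was at 65.9, 60.7, 52.4, 63.4 and 73.9 CPM in G-NHA9 libraries and at 7.73, 8.94, 8.57, 6.69 and 7.60 CPM in G-NHA9Midi libraries (log2 fold change -3.00, SE 0.15, edgeR adjusted p = 5.9e-16), and the Midi mean of 7.91 ± 0.884 CPM compares with 6.43 ± 0.777 CPM in empty vector cells.

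*Meis1* was at 36.3, 38.8, 35.9, 38.1 and 32.4 CPM with G-NHA9 and 12.1, 8.49, 12.7, 14.9 and 10.6 CPM with G-NHA9Midi (log2 fold change -1.63, SE 0.18, edgeR adjusted p = 4.6e-08). The groups do not overlap, and empty vector cells had 13.7 ± 2.61 CPM. *Pknox2* fell from 27.0 ± 14.2 to 4.51 ± 1.99 CPM (log2 fold change -2.59), *Meis3* from 3.08 ± 0.700 to 1.23 ± 0.327 CPM (-1.32) and *Pbx4* from 1.22 ± 0.134 to 0.738 ± 0.0906 CPM (-0.73). The call of *Pbx4* was lost without any one of several libraries (6 of the 10 fits that left out 1 library).

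In the other direction, *Pknox1* (also called PREP1), a TALE protein that competes with MEIS1 for PBX partners, was at 22, 23.0, 24.6, 18.2 and 22.3 CPM with G-NHA9 and 37.3, 45.3, 42.7, 37.0 and 44.1 CPM with G-NHA9Midi (log2 fold change 0.91, SE 0.11, edgeR adjusted p = 1.2e-07). All Midi libraries were higher than all full-length libraries. *Tgif1* also rose, from 37.1 ± 5.24 to 50.9 ± 3.06 CPM (log2 fold change 0.46). *Pbx2* (54.9 ± 5.29 and 59.0 ± 3.84 CPM) and *Tgif2* (3.88 ± 1.03 and 3.56 ± 0.836 CPM) were not called.

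Genes of leukemia stem cells outside the homeobox families were split. Among 22 tested stem and leukemia transcription factors, 6 were lower and 4 higher. *Eya1*, a coactivator that binds homeodomain proteins, was at 45.0, 27.7, 28.0, 32 and 28.1 CPM with G-NHA9 and 2.41, 1.47, 1.60, 1.55 and 1.24 CPM with G-NHA9Midi (log2 fold change -4.28, SE 0.26, edgeR adjusted p = 1.7e-13), with 2.52 ± 0.413 CPM in empty vector cells. *Mecom*, which encodes the stem cell factor EVI1, fell from 7.31 ± 1.59 to 1.54 ± 0.572 CPM (log2 fold change -2.25), and *Gfi1b*, a repressor needed for red cells and platelets, from 8.34 ± 1.54 to 3.43 ± 0.498 CPM (-1.28). *Sox4* rose from 14.7 ± 3.49 to 28.0 ± 4.17 CPM (0.94) and *Hhex* from 19.9 ± 3.13 to 29.9 ± 2.41 CPM (0.58). The rise of *Hlf*, from 2.49 ± 0.933 to 4.16 ± 0.887 CPM (0.74), lost its call in 6 of the 10 fits that left out 1 library.

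*Flt3*, the receptor tyrosine kinase of early progenitors and of many myeloid leukemias, was at 10.2, 9.20, 10.3, 8.75 and 7.18 CPM with G-NHA9 and 2.65, 1.26, 2.78, 2.62 and 1.69 CPM with G-NHA9Midi (log2 fold change -2.05, SE 0.25, edgeR adjusted p = 2.9e-07). Both exceeded the empty vector level of 0.187 ± 0.104 CPM. Of 18 tested stem and progenitor surface genes, 7 were lower and 2 higher. Among the lowest were *Slamf1* (-2.36) and *Esam* (-2.16 in log2), and the higher ones were *Prom1* (1.10) and *Itga6* (0.66). *Cd34*, the marker of progenitors, was chosen after its values were seen. It was at 201, 222, 227, 215 and 235 CPM with G-NHA9 and 71.5, 45.3, 71.8, 84.6 and 68.4 CPM with G-NHA9Midi (log2 fold change -1.69, SE 0.18, edgeR adjusted p = 4e-08), with 36.9 ± 9.25 CPM in empty vector cells.

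The largest rises were in genes with different roles. By the rule for named genes (called, at least 5 CPM on average over the 10 libraries, groups without overlap), the 12 largest were *Chil4*, *Csn1s2a*, *Tmem47*, *Ms4a8a*, *Tnfsf11*, *Csn2*, *Cxcl3*, *Pla1a*, *Abcg3*, *Fzd1*, *Neb* and *Hid1*, with log2 fold changes from 2.27 to 6.05. *Csn2* and *Csn1s2a* encode milk caseins and are classical targets of cytokine-activated STAT5. *Chil4* encodes a chitinase-like lectin of macrophages and neutrophils. Promoter sequences of these 3 genes from RefSeq (GRCm38.p6, 250 bases before to 50 bases after the gene start, read on the gene's strand) are shown because each holds the palindrome TTCNNNGAA that STAT proteins recognize, printed in capitals.

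Csn2 (chr5:87699376-87699675, minus strand): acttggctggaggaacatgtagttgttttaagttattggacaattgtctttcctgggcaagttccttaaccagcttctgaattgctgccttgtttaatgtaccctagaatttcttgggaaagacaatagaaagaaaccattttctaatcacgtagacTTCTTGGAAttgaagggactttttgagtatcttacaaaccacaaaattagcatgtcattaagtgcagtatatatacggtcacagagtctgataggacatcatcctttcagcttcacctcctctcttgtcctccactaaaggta
Csn1s2a (chr5:87774200-87774499, plus strand): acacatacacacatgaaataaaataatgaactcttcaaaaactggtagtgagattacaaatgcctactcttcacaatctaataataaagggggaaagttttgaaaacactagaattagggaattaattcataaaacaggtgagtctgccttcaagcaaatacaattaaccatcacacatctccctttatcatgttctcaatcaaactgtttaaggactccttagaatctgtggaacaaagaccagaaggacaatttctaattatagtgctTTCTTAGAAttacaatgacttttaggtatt
Chil4 (chr3:106219430-106219729, minus strand): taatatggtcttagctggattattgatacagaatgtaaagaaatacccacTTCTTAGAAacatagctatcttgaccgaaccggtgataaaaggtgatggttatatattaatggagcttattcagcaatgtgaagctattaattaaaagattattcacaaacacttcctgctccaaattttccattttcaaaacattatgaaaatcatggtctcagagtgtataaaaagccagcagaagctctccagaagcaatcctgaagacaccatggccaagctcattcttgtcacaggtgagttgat

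The palindrome, which reads alike on both strands, was found for 3 of the 9 genes with an available promoter among the 12 largest rises. Among the 12 largest falls it was found for 0 of 8. Counted by promoter and not by gene, it stood in 8.3% of all 32851 promoters. This motif was chosen after the values were seen, and a match describes letters, not a binding site.

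*Chil4* (ENSMUSG00000063779.6, chromosome 3, 106201490 to 106219507, minus strand) was at 2.5, 2.90, 3.77, 4.67 and 3.12 CPM in G-NHA9 libraries and at 209, 198, 193, 315 and 213 CPM in G-NHA9Midi libraries (log2 fold change 6.05, SE 0.43, edgeR adjusted p = 4.5e-12). Empty vector cells had 3.13 ± 1.29 CPM. Its near-identical neighbor *Chil3* (Ym1), with which it could share reads, was at 1993 ± 1036 and 1946 ± 641 CPM and was not called (edgeR adjusted p = 0.95).

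*Csn2* was at 5.11, 2.24, 2.41, 15.7 and 15.3 CPM with G-NHA9 and 45.2, 155, 92.2, 78.8 and 181 CPM with G-NHA9Midi (log2 fold change 3.76, SE 0.76, edgeR adjusted p = 0.00048), and replicates of either construct spread widely. *Csn1s2a*, its neighbor in the casein cluster, was at 0.139, 0.0635, 0.116, 0.297 and 0.208 CPM and 6.84, 20.8, 7.22, 7.22 and 7.21 CPM in the same order (log2 fold change 5.89, SE 0.66, edgeR adjusted p = 6.5e-08), with replicate 2 of the Midi group far above the other 4. The casein pair did not stand for its pathway as a whole. Of 22 tested STAT5 target genes, 3 were higher (*Csn2*, *Socs3* and *Pim1*, the last without a call in 7 of the 10 fits that left out 1 library) and 2 were lower (*Pim2*, -1.26, and *Socs2*, -0.51 in log2), with a median log2 fold change of 0.01. These are 13.6% and 9.09% of the list, beside 8.5% higher and 11.2% lower of all tested genes.

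*Tnfsf11*, which encodes the osteoclast-inducing cytokine RANKL, was at 0.889, 0.719, 1.01, 1.34 and 0.676 CPM with G-NHA9 and 12, 20.0, 12.8, 9.36 and 9.29 CPM with G-NHA9Midi (log2 fold change 3.77, SE 0.35, edgeR adjusted p = 1.3e-09). *Cxcl3*, a neutrophil-attracting chemokine, rose from 15.3, 5.39, 8.79, 10.9 and 3.33 CPM to 67.8, 96.6, 84.2, 143 and 166 CPM (log2 fold change 3.68, SE 0.46, edgeR adjusted p = 3.8e-07), against 10.8 ± 3.24 CPM with the empty vector. Neither gene's groups overlap. Of 19 tested CC and CXC chemokine genes, *Cxcl3* alone was higher and 7 were lower, the lowest being *Ppbp* (-2.89), *Cxcl5* (-2.63) and *Ccl22* (-2.27 in log2).

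*Tmem47*, a membrane protein gene with *Gm26775* on the opposite strand, went from 0.399 ± 0.199 to 12.8 ± 5.25 CPM (log2 fold change 4.97), *Ms4a8a* from 0.470 ± 0.347 to 13.2 ± 3.83 CPM (4.82) and the WNT receptor gene *Fzd1* from 1.92 ± 0.633 to 16.7 ± 3.27 CPM (3.12). *Neb*, known as the gene of the muscle protein nebulin, was at 15.9, 12.2, 9.97, 21.5 and 14.0 CPM with G-NHA9 and 139.7, 142, 137, 91.0 and 113 CPM with G-NHA9Midi (log2 fold change 3.08, SE 0.36, edgeR adjusted p = 1.2e-07), with 37.7 ± 14.1 CPM in empty vector cells. The phospholipase gene *Pla1a* (3.48), the transporter gene *Abcg3* (3.17) and *Hid1* (2.27 in log2) complete the 12.

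Some genes below the level minimum changed by larger factors, and these were chosen after their values were seen. *Azgp1*, a secreted lipid-mobilizing protein, was at 0.0278, 0.0423, 0.116, 0.0247 and 0 CPM with G-NHA9 and 4.78, 16.1, 10.7, 4.04 and 8.03 CPM with G-NHA9Midi (log2 fold change 7.64). *Ly6f* held 5 counts in all in G-NHA9 libraries and 928 in Midi libraries, a ratio of 167 (95% exact binomial interval, 71.4 to 516). In the opposite direction, *Mybpc1*, a gene of slow muscle myosin-binding protein, had no count in any Midi library and 5.39, 5.61, 4.49, 4.48 and 4.55 CPM in the G-NHA9 libraries, at least 69.4-fold higher in G-NHA9 when 3 counts per Midi library are allowed. Of the called genes, 56 held at most 3 counts in every Midi library and 11 at most 3 in every G-NHA9 library.

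Counted by the change in mean CPM, the largest gains among called genes without overlap were *Thbs1*, *H2-D1*, *Tgm2*, *Il1rn*, *Cd53* and *Rpl4*. *Tgm2*, the gene of tissue transglutaminase, was at 330.2, 376, 412, 282 and 248 CPM with G-NHA9 and 799, 846, 947, 773 and 893 CPM with G-NHA9Midi (log2 fold change 1.37, SE 0.11, edgeR adjusted p = 3.6e-11). *Il1rn*, the interleukin-1 receptor antagonist, was at 227, 214, 290.2, 154 and 146 CPM and 498, 653, 666, 719 and 726 CPM in the same order (log2 fold change 1.66, SE 0.17, edgeR adjusted p = 1.7e-08). *Thbs1* (thrombospondin 1) rose from 2742 ± 774 to 5302 ± 919 CPM (log2 fold change 0.95, SE 0.28, edgeR adjusted p = 0.013) and was not called without G-NHA9 replicate 5 (edgeR adjusted p = 0.052). The MHC class I gene *H2-D1* (0.55), the tetraspanin gene *Cd53* (0.68) and *Rpl4* (0.36 in log2) changed by smaller factors.

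The largest losses in CPM were those of *Lpl*, *Prg2*, *Fstl1*, *Gm5483*, *Cd74* and *Gpi1*. *Lpl*, lipoprotein lipase, fell from 949 ± 125 to 513 ± 158 CPM (log2 fold change -0.89), with 2482 ± 282 CPM in empty vector cells. The secreted glycoprotein gene *Fstl1* fell from 388 ± 140.4 to 65.3 ± 41.3 CPM (-2.57), *Gm5483* from 508 ± 97.5 to 221 ± 71.7 CPM (-1.20), the MHC class II invariant chain gene *Cd74* from 628 ± 71.9 to 357 ± 77.1 CPM (-0.81) and the glycolytic enzyme gene *Gpi1* from 930.0 ± 152 to 660.0 ± 57.3 CPM (-0.49).

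**Figure D3:**
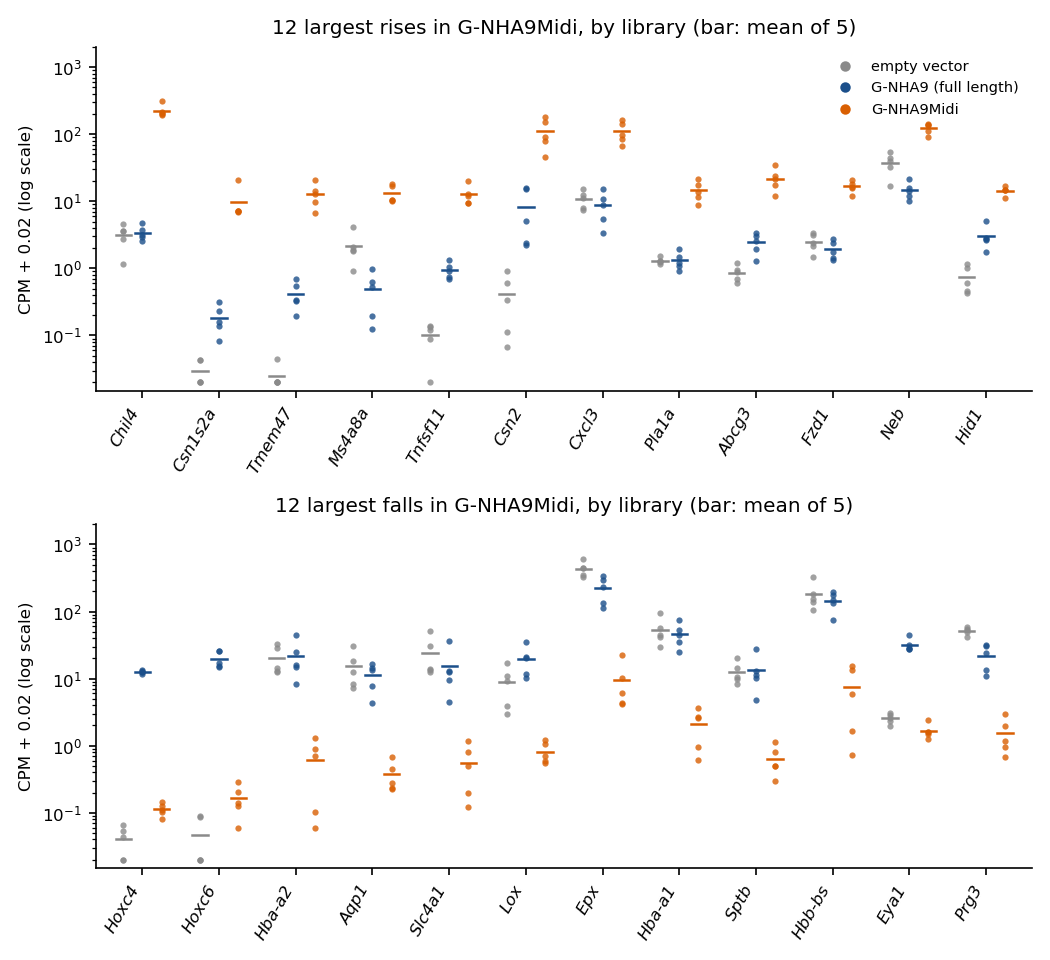
CPM of each library (plus 0.02, on a log scale) for the 12 largest rises and the 12 largest falls, with means of 5 as bars. Full-length and Midi points do not overlap for any of the 24 genes, by the rule that chose them, and for the globin, *Epx* and *Prg3* genes it is the full-length points that lie nearer to the empty vector points.

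Red cell genes made up 6 of the 12 largest falls. The 12 were *Hoxc4*, *Hoxc6*, *Hba-a2*, *Aqp1*, *Slc4a1*, *Lox*, *Epx*, *Hba-a1*, *Sptb*, *Hbb-bs*, *Eya1* and *Prg3*, and of these *Hba-a1*, *Hba-a2*, *Hbb-bs* (globins), *Slc4a1* (band 3), *Aqp1* (a water channel) and *Sptb* (spectrin) belong to red cells. Of 28 tested erythroid genes, 25 were lower and none higher, with a median log2 fold change of -4.43. In bulk libraries, fewer red cells or precursors and less of these RNAs per cell cannot be told apart.

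*Hbb-bs* was at 74.9, 149, 134, 173 and 195 CPM in G-NHA9 libraries and at 0.698, 15.6, 1.62, 13.2 and 5.93 CPM in G-NHA9Midi libraries (log2 fold change -4.31, SE 0.65, edgeR adjusted p = 8.8e-06). The lowest G-NHA9 library was still above the highest Midi library, and empty vector cells had 181 ± 88.1 CPM. *Hba-a1* fell from 46.4 ± 18.8 to 2.07 ± 1.28 CPM (log2 fold change -4.52) and its near-identical copy *Hba-a2*, with which reads could be shared, from 21.7 ± 14.0 to 0.584 ± 0.522 CPM (-5.31). *Hbb-bt* fell less, from 83.9 ± 17.2 to 45.5 ± 8.63 CPM (-0.88).

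Genes of red cell regulators were lower as well. *Klf1*, the factor that switches on adult globin genes, was at 2.20, 5.27, 6.58, 6.60 and 8.51 CPM with G-NHA9 and 0.359, 0.270, 0.266, 0.535 and 0.536 CPM with G-NHA9Midi (log2 fold change -3.88, SE 0.44, edgeR adjusted p = 6.4e-08). *Gata1* was at 9.56, 17.3, 17.7, 11.5 and 14.3 CPM and 3.53, 2.52, 3.99, 6.02 and 4.74 CPM in the same order (log2 fold change -1.76, SE 0.23, edgeR adjusted p = 7.7e-07), with 19.8 ± 3.58 CPM in empty vector cells. *Epor*, the erythropoietin receptor, fell from 2.83 ± 1.05 to 0.415 ± 0.0695 CPM (log2 fold change -2.77). The steepest falls of the list were those of *Epb42* (-5.60), *Hba-a2* and the blood group gene *Kel* (-5.10). The 3 erythroid genes without a call, *Tfrc*, *Nfe2* and *Car2*, are also used by other cells. All 28 genes together summed to 823 ± 233 CPM with G-NHA9 and 456 ± 76.2 CPM with G-NHA9Midi, with overlapping groups. With the empty vector this sum was 743 ± 244 CPM (SD, n = 5 each). Without the 3, the summed level of the other 25 was 424 ± 148 CPM (SD, n = 5) with G-NHA9, 70.6 ± 16 CPM (SD, n = 5) with G-NHA9Midi and 477 ± 208 CPM (SD, n = 5) with the empty vector. These 25 are the genes called lower, so a lower Midi sum was fixed by that choice.

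GATA1 recognizes GATA sequences, and the letters GATAAG (either strand) were searched in the same RefSeq promoters. They were found for 13 of the 21 erythroid genes with an available promoter (61.9%). For the 12 largest falls it was 3 of 8 genes, and for the 12 largest rises 0 of 9. The 3 were *Hba-a1*, *Hba-a2* and *Hbb-bs*, all also in the erythroid list. The share of all promoters, counted by promoter and not by gene, was 7.44%. Because the list was picked as red cell genes and GATA1 is a red cell regulator, its share cannot test a role of GATA1. This motif too was chosen after the values were seen, and a match describes letters, not a binding site. The promoters of 2 globin genes are shown with the match in capitals.

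Hba-a1 (chr11:32283422-32283721, plus strand): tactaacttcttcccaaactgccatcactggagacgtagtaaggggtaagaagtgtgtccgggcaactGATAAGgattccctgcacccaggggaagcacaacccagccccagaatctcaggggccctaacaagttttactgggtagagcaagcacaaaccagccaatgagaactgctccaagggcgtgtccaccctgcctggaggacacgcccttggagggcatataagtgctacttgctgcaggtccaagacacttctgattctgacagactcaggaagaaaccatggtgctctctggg
Hbb-bs (chr7:103827879-103828178, minus strand): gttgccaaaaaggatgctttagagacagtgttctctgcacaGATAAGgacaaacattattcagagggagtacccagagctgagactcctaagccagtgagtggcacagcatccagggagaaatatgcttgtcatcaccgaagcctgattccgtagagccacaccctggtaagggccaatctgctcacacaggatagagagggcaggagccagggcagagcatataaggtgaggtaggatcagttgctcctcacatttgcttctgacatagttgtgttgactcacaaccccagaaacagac

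Platelet genes showed the same direction. Of 18 tested megakaryocyte and platelet genes, 15 were lower, *Thbs1* was higher, and *F2rl2* and *Plek* were not called (median log2 fold change -2.25). *Pf4*, platelet factor 4, was at 92.4, 290.4, 286, 100.0 and 91.2 CPM with G-NHA9 and 21.5, 28.5, 36.4, 61.4 and 43.9 CPM with G-NHA9Midi (log2 fold change -2.17, SE 0.37, edgeR adjusted p = 5.4e-05). Replicates 2 and 3 of G-NHA9 stood high within their group, and no Midi library reached the lowest full-length library. The lowest members were *Gp9* (-2.91), *Ppbp* (-2.89) and *Tubb1* (-2.83 in log2). The summed level of all 18 genes went the other way, with 4371 ± 1104 CPM for G-NHA9 and 6529 ± 827 CPM for G-NHA9Midi. With the empty vector it was 5668 ± 467 CPM (SD, n = 5 each). Without the abundant *Thbs1* and *Plek*, the summed level was 701 ± 318 CPM (SD, n = 5) with G-NHA9, 265 ± 50.7 CPM (SD, n = 5) with G-NHA9Midi and 1345 ± 278 CPM (SD, n = 5) with the empty vector. Neither of these 2 genes was called lower, so leaving them out favors a lower Midi sum.

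Eosinophil granule genes were much lower with the Midi construct. Of 10 tested eosinophil genes, 9 were lower and only *Ccr3* was not called (median log2 fold change -2.75). *Epx*, eosinophil peroxidase, was at 234, 334, 135, 112 and 293 CPM with G-NHA9 and 4.27, 10.2, 4.11, 6.12 and 22.5 CPM with G-NHA9Midi (log2 fold change -4.55, SE 0.49, edgeR adjusted p = 2.8e-08). *Prg2*, the major basic protein, was at 560.1, 546, 247, 129 and 347 CPM and 20.3, 50.2, 22.2, 27.6 and 68.5 CPM in the same order (log2 fold change -3.28, SE 0.43, edgeR adjusted p = 7e-07). Every Midi library was below every full-length library for both genes, and empty vector cells had 430.3 ± 109 and 888 ± 173 CPM of the 2 genes. *Prg3* (-3.84) and the ribonuclease gene *Ear1* (-3.39) fell as well, as did *Il5ra*, the receptor that drives eosinophil growth (-2.19 in log2), whose level was low in both (0.406 ± 0.241 and 0.0877 ± 0.0326 CPM).

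Mast cell and basophil genes moved less. Of 18 tested, 5 were lower and 1 higher (median log2 fold change -0.60), and *Cpa3*, the most abundant marker of this list, was not called. *Mcpt1* (-2.63), *Prss34* (-1.42) and *Mcpt2* (-1.24) were the lowest. The rise of *Cd200r3* (0.67 in log2) was not called in 7 of the 10 fits that left out 1 library.

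**Figure D4:**
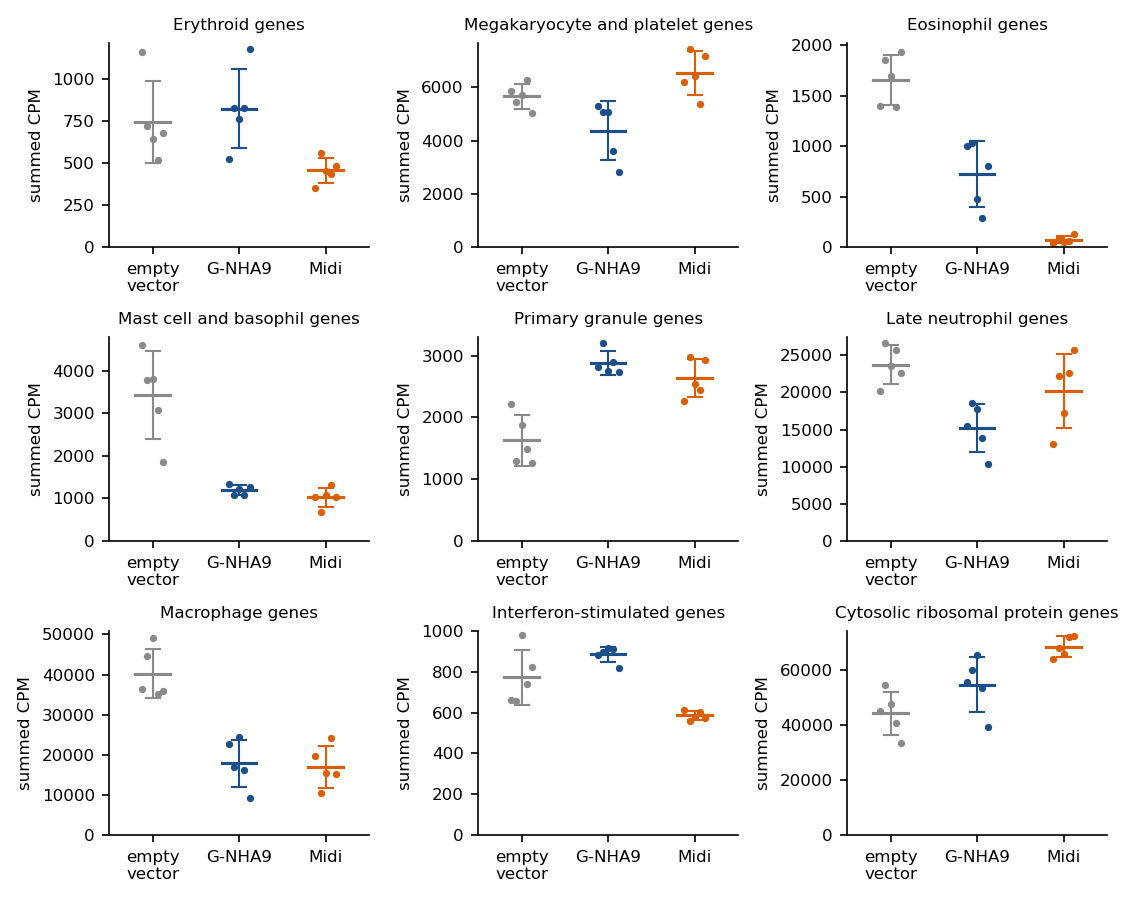
Summed CPM of all genes of 9 lists, tested or not, in each library of empty vector, G-NHA9 and G-NHA9Midi cells, with lines for the mean and bars for the SD of 5 libraries. Eosinophil sums are lowest with the Midi construct (74.3 ± 35.4 CPM against 722 ± 329.9 CPM with G-NHA9), macrophage sums overlap between the 2 constructs, and the megakaryocyte sum is carried by *Thbs1*, which rose.

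Granulocyte genes went both ways. Of 23 tested late neutrophil genes, 7 were higher and 3 lower, beside 8.5% and 11.2% of all tested genes. *Csf3r*, the G-CSF receptor, was at 42.2, 37.9, 38.2, 26.7 and 23.6 CPM with G-NHA9 and 66.8, 68.8, 65.7, 65.3 and 71.8 CPM with G-NHA9Midi (log2 fold change 1.01, SE 0.23, edgeR adjusted p = 0.0015), and *Mmp9*, gelatinase B, at 26.2, 25.6, 26.3, 17.4 and 15.3 CPM and 30.4, 57.2, 57.6, 64.7 and 89.5 CPM (log2 fold change 1.43, SE 0.36, edgeR adjusted p = 0.0047). The groups do not overlap for either gene. *Retnlg* (1.15 in log2) was the other of the 3 highest, but its call was lost in 4 of the 10 fits that left out 1 library.

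The calprotectin genes *S100a8* and *S100a9*, among the most abundant of the list, rose from 3412 ± 687 to 5742 ± 1705 CPM and from 4207 ± 767 to 7842 ± 2106 CPM with overlapping groups (edgeR adjusted p = 0.036 and 0.0083). These 2 were chosen after their values were seen, and their calls were not recomputed under the alternatives. The lactoferrin gene *Ltf*, a secondary granule gene, fell from 689 ± 128 to 351 ± 121 CPM (log2 fold change -0.97), and *Wfdc21* (-0.73) and *Mmp8* (-0.65) followed, with calls lost in 3 and 7 of the 10 fits that left out 1 library.

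Of 10 tested primary granule genes, 3 were lower and 1 higher. *Hp* fell from 91.1 ± 27.0 to 36.7 ± 15.4 CPM (-1.31), *Igfbp4* from 62.4 ± 7.93 to 38.5 ± 3.95 CPM (-0.70) and *Elane*, neutrophil elastase, from 282 ± 51.1 to 121 ± 79.8 CPM (-1.22), while *Serpinb1a*, an inhibitor of neutrophil proteases, rose from 341 ± 18.3 to 445 ± 31.3 CPM (0.38). The calls of *Elane* and *Serpinb1a* were lost in 7 and 6 of the 10 fits that left out 1 library.

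The summed level of the 26 macrophage genes of the table was 17839 ± 5955 CPM (SD, n = 5) with G-NHA9 and 16924 ± 5144 CPM (SD, n = 5) with G-NHA9Midi. *Lyz2* and *Gpnmb* carried most of it. Without these, the other 21 tested genes summed to 4051 ± 1044 and 4175 ± 840 CPM (SD, n = 5 each) in the same order. Single genes differed. Of 23 tested, 6 were lower and 1 higher. The complement genes *C1qa*, *C1qb* and *C1qc* fell together, *C1qb* from 5.53, 7.32, 5.60, 5.02 and 3.17 CPM with G-NHA9 to 0.578, 0.300, 0.430, 0.749 and 0.288 CPM with G-NHA9Midi (log2 fold change -3.50, SE 0.40, edgeR adjusted p = 7.9e-08), close to the 0.620 ± 0.171 CPM of empty vector cells. *C1qa* held 6 counts in all over the Midi libraries against 95 over the G-NHA9 libraries (ratio 17.6, 95% exact binomial interval, 7.78 to 49.1), and *C1qc* changed by -3.06 in log2. *Vcam1*, an adhesion molecule, rose from 12.7 ± 8.48 to 51.1 ± 20.8 CPM (log2 fold change 2.01, SE 0.37, edgeR adjusted p = 0.00015).

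Monocyte genes were also split, 3 higher and 3 lower of 14. *Fn1*, fibronectin (1.77), and the proteoglycan gene *Vcan* (0.82) rose, and *S100a4* (-1.25) and *Ms4a6c* (-0.88 in log2) fell. The rise of *Ly6c2* (0.54) was not called without G-NHA9Midi replicate 2 (edgeR adjusted p = 0.067). Of 15 tested dendritic cell genes, 9 were lower and none higher (median log2 fold change -1.05), with *Ccl22* (-2.27), *Flt3* and *Clec10a* (-1.82) lowest. Among 14 MHC class II genes, a list that includes regulators and costimulatory genes, the transactivator gene *Ciita* (-0.86) and *Cd74* fell, whereas *Cd80* (0.87), *H2-Ob* (0.75) and *H2-Ab1* (0.54 in log2) rose.

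Marker genes of lymphoid and stromal cells gave a mixed picture. The 14 B cell genes of the table, tested or not, summed to 2.5 ± 0.576 and 2.69 ± 0.433 CPM (SD, n = 5 each) in G-NHA9 and G-NHA9Midi cells, and none of the 3 tested was called. The 17 T and NK cell genes of the table summed to 173 ± 48.7 and 112 ± 38.9 CPM (SD, n = 5 each), and of the 8 tested 3 were lower (*Cd3g* -2.38, *Gata3* -1.80 and *Nkg7* -1.42) and *Lck* was higher (0.71 in log2). The 13 stromal and endothelial genes of the table summed to 249.5 ± 14.8 and 240.2 ± 17.9 CPM (SD, n = 5 each). In empty vector cells *Pecam1* alone was at 148 to 183 CPM, beside sums of 210 to 247 CPM, so such sums say little about the other genes. Among the 8 tested, *Col1a2* (-2.88), *Pdgfrb* (-1.93) and *Lepr*, the leptin receptor, were lower, and *Acta2* (1.11) and *Pecam1* (0.28) were higher. *Lepr* was at 57.2, 63.2, 44.0, 59.4 and 47.2 CPM with G-NHA9 and 11.3, 14.6, 13.4, 12.7 and 19.2 CPM with G-NHA9Midi (log2 fold change -1.93, SE 0.29, edgeR adjusted p = 7.9e-06), against 3.68 ± 1.26 CPM with the empty vector. The part of such cells in the other results was not tested.

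The interferon-stimulated genes, which cells switch on in response to interferons, were in good part lower. Of 38 tested, 21 were lower and none higher (median log2 fold change -0.84), and 19 of the 38 had groups that do not overlap, beside 13.1% of all tested genes. *Oas2*, an antiviral sensor, was at 8.12, 7.66, 6.55, 13.7 and 14.6 CPM with G-NHA9 and 1.42, 0.870, 1.06, 1.47 and 1.3 CPM with G-NHA9Midi (log2 fold change -3.04, SE 0.52, edgeR adjusted p = 5.9e-05), with 7.83 ± 4.45 CPM in empty vector cells. *Rtp4* (-2.64) and *Oasl2* (-2.27 in log2) were next. *Irf7*, the amplifier of the interferon response, fell from 25.8 ± 2.94 to 11.7 ± 1.33 CPM (-1.14). With 1 library left out, 15 to 20 of the genes were lower.

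**Figure D5:**
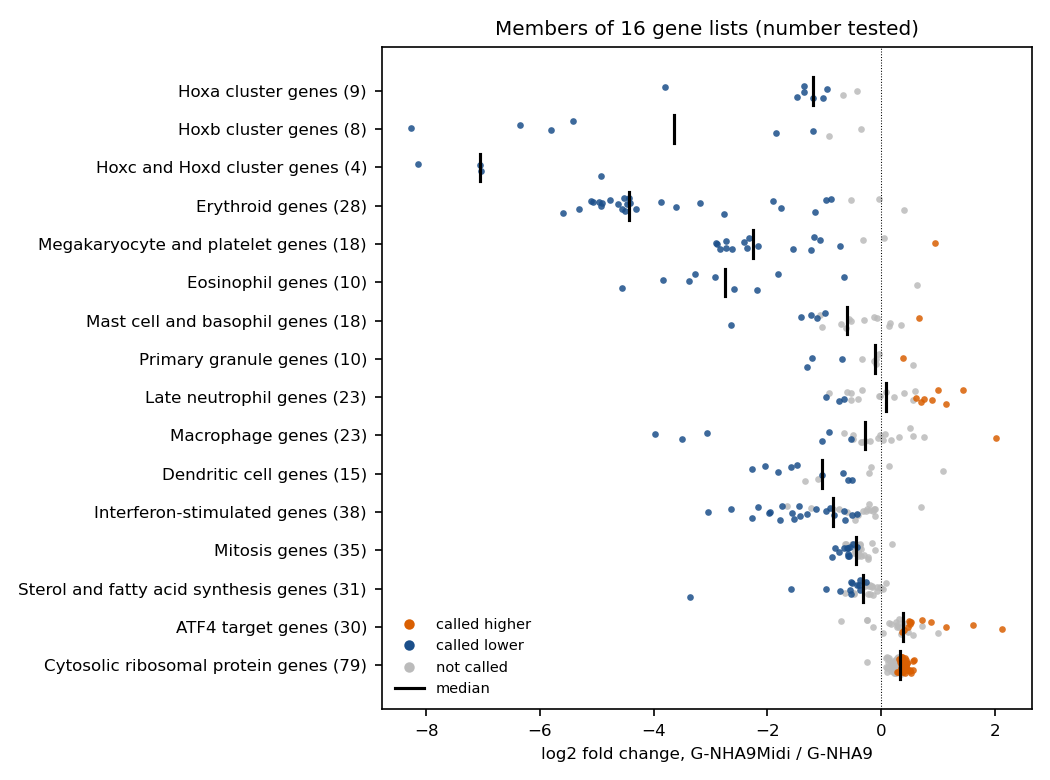
Each point is a tested member of one of 16 gene lists, placed at its log2 fold change, G-NHA9Midi over G-NHA9, with the median as a line and calls in color. Medians run from -7.05 for the C and D *Hox* genes and -4.43 for erythroid genes to 0.34 for cytosolic ribosomal protein genes and 0.39 for ATF4 targets.

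Genes of protein synthesis were higher by small factors. Of 79 tested cytosolic ribosomal protein genes, 37 were higher and none lower (median log2 fold change 0.34), beside 8.5% of all tested genes called higher. *Rpl12* was at 876, 975, 1109, 877 and 659 CPM with G-NHA9 and 1120.5, 1221, 1180.0, 1300.3 and 1301 CPM with G-NHA9Midi (log2 fold change 0.45, SE 0.12, edgeR adjusted p = 0.0079), and *Rps12* at 878, 948, 1022, 915 and 722 CPM and 1086, 1051, 1074, 1097 and 1112 CPM without a call (edgeR adjusted p = 0.065, and 0.035 without G-NHA9 replicate 3). *Rps23* (0.57), *Rplp2* (0.56) and *Rps7* (0.56 in log2) were highest. The count depended on a few libraries. It was 9 without G-NHA9 replicate 5, 21 without G-NHA9 replicate 4 and 24 without G-NHA9Midi replicate 4, and 5 when only the 10 libraries were fitted.

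Among related lists, 5 of 45 translation factor genes (11.1%) and 6 of 61 ribosome assembly genes (9.84%) were higher, shares near the 8.5% of all tested genes. Of the small nucleolar RNA host genes 4 of 17 (23.5%) and of the mitochondrial ribosomal protein genes 13 of 78 (16.7%) were higher, and of these 4 lists only the last held a lower gene (*Mrpl45*, -0.29 in log2). *Taf1d* (0.48), *Snhg12* (0.78), *Snhg17* (0.57), *Mrpl23* (0.45), *Mrpl19* (0.41) and *Eif2b3* (0.40 in log2) stood among their highest members. Of 71 nuclear genes of oxidative phosphorylation, 4 were higher (5.63%, below the 8.5% of all tested genes) and none lower. Of the 13 genes encoded by mitochondrial DNA none was called.

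Targets of ATF4, the transcription factor of the amino acid and stress response, were higher as well, 12 of 30 tested with none lower (median log2 fold change 0.39). *Trib3*, a pseudokinase that feeds back on ATF4, was at 30.5, 34.4, 52.9, 14.9 and 17.6 CPM with G-NHA9 and 124, 62.3, 94.5, 98.7 and 82.4 CPM with G-NHA9Midi (log2 fold change 1.62, SE 0.28, edgeR adjusted p = 6.5e-05). *Cth*, an enzyme of cysteine synthesis, was at 7.34, 10.8, 10.9, 1.58 and 1.01 CPM and 19.2, 34.8, 31.4, 20.5 and 32.8 CPM (log2 fold change 2.13, SE 0.63, edgeR adjusted p = 0.015), with replicates 4 and 5 of G-NHA9 far below the other 3. *Ddit3* (CHOP) rose from 25.0 ± 11.6 to 55.4 ± 18.8 CPM (1.15), and *Atf4* was at 350.2 ± 112 and 496 ± 46.3 CPM with overlapping groups (edgeR adjusted p = 0.044). The count was 7 without G-NHA9 replicate 4 and 7 without G-NHA9 replicate 5.

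Mitosis genes were lower to a small degree. Of 35 tested mitosis genes, 12 were lower (median log2 fold change -0.44), led by *Plk1* (-0.86), *Mki67* (-0.81) and *Kif20a* (-0.75 in log2), with none higher. Of 41 DNA replication genes 5 were lower (12.2%), near the 11.2% of all tested genes called lower, and none was higher. *Mki67*, the proliferation marker, was at 616, 543, 332, 604 and 757 CPM with G-NHA9 and 249, 513, 355, 189.9 and 326 CPM with G-NHA9Midi, with overlapping groups. The mitosis count was unstable. Leaving out 1 library gave 5, 6 and 4 without G-NHA9 replicates 2, 4 and 5, 4, 4 and 3 without G-NHA9Midi replicates 1, 3 and 4, and 27 without G-NHA9Midi replicate 2.

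Of 18 tested G1 cyclin and inhibitor genes, 3 were higher and 4 lower. Among the inhibitors, *Cdkn2b* was at 4.28, 4.84, 4.15, 4.10 and 3.15 CPM with G-NHA9 and 6.80, 5.10, 7.65, 9.44 and 7.93 CPM with G-NHA9Midi (log2 fold change 0.85, SE 0.17, edgeR adjusted p = 0.00058), and *Cdkn2a* rose from 3.81 ± 0.483 to 6.26 ± 1.2 CPM (log2 fold change 0.72). *Cdkn2c* (-0.83), *Cdkn1c* (-1.90) and the cyclin gene *Ccne1* (-0.68 in log2) fell. Of 17 tested BCL2 family genes, 4 were higher and 2 lower. The survival gene *Bcl2* was at 70.1, 63.5, 63.0, 53.3 and 50.9 CPM with G-NHA9 and 113, 99.4, 99.1, 82.8 and 85.3 CPM with G-NHA9Midi (log2 fold change 0.67, SE 0.16, edgeR adjusted p = 0.0019). Also higher were *Bcl2l2* (0.34), which was chosen after its values were seen, and *Bcl2a1a* (1.13) and *Bcl2a1b* (1.05 in log2), near-identical copies that could share reads. The death-promoting genes *Bcl2l11* (BIM), from 59.3 ± 8.11 to 35.8 ± 4.18 CPM (-0.73), and *Bik* (-1.85 in log2) were lower. Among p53 targets, *Fas* rose most, from 18.4 ± 3.61 to 43.2 ± 7.90 CPM (1.23), and 4 of 24 were higher in all and 1 lower.

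Genes of metabolism fell in part. Of 31 tested sterol and fatty acid synthesis genes, 13 were lower and none higher. *Scd1*, a fatty acid desaturase, was at 107, 107, 92.5, 169 and 249.8 CPM with G-NHA9 and 32.4, 51.1, 44.4, 46.0 and 68.2 CPM with G-NHA9Midi (log2 fold change -1.58, SE 0.24, edgeR adjusted p = 6.8e-06). The count was 7 without G-NHA9 replicate 5 and 8, 8 and 6 without G-NHA9Midi replicates 1, 3 and 4. Of 24 glycolysis genes, 8 were lower and none higher, with *Aldoc* (-0.59), *Pgk1* (-0.56) and *Gpi1* (-0.49 in log2) lowest.

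Among growth factor and cytokine receptors, 3 of 26 were higher (*Csf3r*, *Csf2ra* and the interferon receptor gene *Ifnar2*) and 6 lower (among them *Epor*, *Flt3* and *Il1r1*, -1.20 in log2). These are 11.5% and 23.1% of the list, beside 8.5% higher and 11.2% lower of all tested genes. *Csf2ra*, a chain of the receptor for the GM-CSF in the medium, was at 83.9 ± 13.9 and 109 ± 7.82 CPM (0.37 in log2, overlapping groups). The integrin gene *Itgb3* fell from 272 ± 84.9 to 100.3 ± 26.2 CPM (-1.44), and *Itgad* rose from 0.133 ± 0.0659 to 1.21 ± 0.335 CPM (3.17). In the Eph family, with 3 of 14 genes higher and 3 lower, *Ephb2* (-2.71) and *Epha3* (-1.77) were lower and *Epha7* (1.66) and *Efnb1* (1.15) higher. Of 32 nucleoporin and transport genes, *Seh1l* (0.33) was higher and *Nup205* (-0.31 in log2) lower, each 3.12% of the list. Of 41 chromatin regulators 4 were higher and 4 lower (9.76% each), near the 8.5% and 11.2% of all tested genes. *Cbx2* (0.67), a Polycomb subunit, was highest of these and *Mllt3* (-0.50 in log2) was among the called lower ones.

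Where a list had called genes in one direction only, edgeR at an unadjusted p under 0.05 gave 0 genes in the opposite direction for the *Hox*, erythroid, interferon-stimulated, translation factor, ribosome assembly, DNA replication, mitosis, oxidative phosphorylation, ATF4 and sterol lists. The *Serpina3* and heat shock lists also had 0. It gave 1 gene each for the eosinophil, dendritic cell, glycolysis, lysosome, cytosolic ribosomal protein and small nucleolar RNA host lists. DESeq2 called 0 genes in the opposite direction of any of these lists. For the B cell genes and the genes of mitochondrial DNA, none of which edgeR called, 0 passed an unadjusted p under 0.05 and DESeq2 called 0.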

How the data were processed

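Raw read counts per gene were deposited by the authors as one table of 49671 genes, made with STAR 2.7.0d on mm10 and HTSeq 0.11.2 per the submitters' processing notes, from TruSeq Stranded Total RNA libraries. The annotation release and the strand setting of the counting are not given in the sources used here, so a gene and its antisense partner could share counts. All 35 libraries (7 conditions of 5) were fitted together with edgeR 4.0.16 (R 4.3.3, TMM scaling, filterByExpr, quasi-likelihood test), and the contrast G-NHX9-midi minus G-NHX9 was tested over 17166 genes with Benjamini-Hochberg adjustment at 0.05. CPM were computed from the counts with TMM-scaled library sizes, and 3 counts in a library were taken as the floor.

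Named genes were the 12 largest rises and the 12 largest falls with at least 5 CPM on average, no overlap of the conditions and a symbol that is not a gene model name, the 6 largest gains and losses in CPM, the genes the study names, all *Hox* and TALE genes, and the 3 highest and 3 lowest called members of each gene list. Some further list members, such as *Klf1*, *Gata1*, *Pf4*, *Hbb-bt*, *Irf7* and *Atf4*, are given outside this rule. The members and lists were chosen with earlier results of these data known. Coordinates are those of GENCODE M21 on GRCm38, in which 99.8% of the tested identifiers were found. DESeq2 1.42.0, other scalings, filters, sets of libraries, a replicate block and leaving out single libraries were tried as alternatives. Some genes, and 1 list that turns on one of them, are not reported here. The test was checked on simulated counts. Depths were 32201151 to 50617785 counts per library, and counting intervals cover counting error only.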

Additional observations from a re-analysis of the deposited data

Results flagged for a closer look

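Within a condition, a library was set apart when its gap to the nearest other library, divided by the range of the 5, exceeded 0.71. Of the 440 groups of 5 libraries examined (210 genes and 10 summed levels named in the text, in both conditions), 19 met this (4.32%), and chance flags about 1 in 20 groups. Values are CPM of the library set apart, with the range of the other 4.

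G-NHA9 replicate 1 stood above the other libraries of its condition for *Eya1* at 45.0 (others 27.7 to 32). G-NHA9 replicate 1 stood below the other libraries of its condition for *Nfe2* at 122 (others 142 to 148). G-NHA9 replicate 3 stood above the other libraries of its condition for *Ccr7* at 7.16 (others 5.01 to 5.46). G-NHA9 replicate 4 stood above the other libraries of its condition for *Cuzd1* at 0.0247 (others 0 to 0), *Rtp4* at 11.5 (others 8.69 to 9.39) and *S100a4* at 394 (others 259 to 286). The *Cuzd1* value is 1 count, and with the other libraries at 0 any count would have met the rule. G-NHA9 replicate 5 stood above the other libraries of its condition for *F2rl2* at 48.8 (others 21.6 to 27.4), *Gata3* at 2.91 (others 1.28 to 1.46), *Hoxb8* at 6.42 (others 2.46 to 3.19), *Nup205* at 171 (others 117 to 124), *Slc4a1* at 36.8 (others 4.47 to 13.1) and *Vcam1* at 27.3 (others 5.96 to 11.9). G-NHA9 replicate 5 stood below the other libraries of its condition for *H2-Ob* at 41.1 (others 68.0 to 75.9) and *Sox4* at 8.66 (others 15 to 17.4). G-NHA9Midi replicate 1 stood below the other libraries of its condition for *Mrpl23* at 20.4 (others 21.7 to 22.1). G-NHA9Midi replicate 2 stood above the other libraries of its condition for *Csn1s2a* at 20.8 (others 6.84 to 7.22). G-NHA9Midi replicate 4 stood above the other libraries of its condition for *Chil4* at 315 (others 193 to 213). G-NHA9Midi replicate 4 stood below the other libraries of its condition for *Hoxa6* at 0.588 (others 1.06 to 1.2) and *Vcan* at 385 (others 558 to 609.6).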

How the results depend on the processing

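The number of called genes was 3358 without TMM factors (1128 higher, 2230 lower), 3357 with RLE size factors, 2785 without a filter, 2797 with a mean of at least 1 CPM, 3628 with DESeq2, and 3430 with a score of sex-linked transcripts as covariate. The counts of lower *Hox*, erythroid, megakaryocyte, eosinophil and interferon-stimulated genes stayed within 1.5 times of those in the report under all 20 alternatives. With only the 10 libraries in the fit, 751 genes were higher, and 5 cytosolic ribosomal protein, 6 ATF4 target and 2 mitosis genes passed. With an absolute log2 fold change of at least 1 required, 1365 genes were called (296 higher, 1069 lower), with 0 ribosomal protein, 0 mitosis, 3 ATF4 target and 2 sterol genes. Leaving out 1 library gave 2517 to 3709 genes in all, 925 to 1747 higher and 1551 to 1962 lower, with 16 to 17 *Hox*, 24 to 25 erythroid, 14 to 15 megakaryocyte, 9 eosinophil, 15 to 20 interferon-stimulated, 9 to 55 ribosomal protein, 3 to 27 mitosis, 7 to 15 ATF4 target and 6 to 14 sterol genes. The lowest total, and the lowest ribosomal protein count, came without G-NHA9 replicate 5. The difference in summed *Hox* level was -149 CPM and lay between -154.4 and -145.5 CPM. Of the 211 named genes that were called, 107 kept their side of the threshold in every alternative in which they were tested. That was up to 20 per gene, and 17 for *Hoxb9*, for example. One alternative required an absolute log2 fold change of at least 1, which smaller changes fail by its rule.

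No label says what a replicate number marks, and the libraries were not treated as pairs: deviations of same-numbered libraries correlated at -0.032 to 0.423, above 0.1 in 3 of 5 numbers, and 2 of 5 Midi libraries correlated best with their own number. Whether the numbers mark a shared set of preparations was not tested, and the main fit held no replicate block. Replicate 1 had the highest summed level of immediate early, mitochondrial DNA, myeloid transcription factor and p53 target genes in all 7 conditions. Replicate 5 was highest in all 7 for G1 cyclin and CDK inhibitor genes. It was highest in 6 of 7 for sex-linked, sterol and fatty acid synthesis, and chromatin regulator genes. Other lists varied more, and for erythroid genes no number was highest in more than 2 of 7. With the replicate block, 4992 genes were called on all libraries (2411 higher), and 3133 on the 10 libraries, with 6 ribosomal protein and 20 mitosis genes. The log2 fold change of Nup98, which was not called, changed sign to 0.0875 with the sex-linked score, and lay between -0.0886 and 0.0504 when 1 library was left out, above 0 without G-NHA9 replicate 5 or G-NHA9Midi replicate 4. The log2 fold change of Tgif2, also not called, changed sign to 0.0294 with the sex-linked score and lay between -0.238 and 0.0148 when 1 library was left out, above 0 without G-NHA9 replicate 4.

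Calls of the genes named in the text were lost without G-NHA9 replicate 1 (*C3ar1*, *Elane*, *Hlf*, *Itgax*, *Mmp8*), G-NHA9 replicate 2 (*Cd200r3*, *Elane*, *Hlf*, *Mmp8*, *Mrpl45*, *Pbx4*, *Pim1*), G-NHA9 replicate 3 (*Cd200r3*, *Hlf*, *Itgax*, *Mmp8*, *Pim1*, *Serpinb1a*), G-NHA9 replicate 4 (*Cbx2*, *Cd200r3*, *Elane*, *Mmp8*, *Mrpl45*, *Pbx4*, *Pim1*, *Retnlg*, *Rpl4*, *Serpinb1a*, *Spi1*), G-NHA9 replicate 5 (*C3ar1*, *Ccrl2*, *Cd200r3*, *Elane*, *Hoxa4*, *Hsph1*, *Mrpl45*, *Nup205*, *Pbx4*, *Pim1*, *Pim2*, *Plk1*, *Retnlg*, *Rpl4*, *Serpinb1a*, *Spi1*, *Thbs1*), G-NHA9Midi replicate 1 (*Cd200r3*, *Elane*, *Hlf*, *Mrpl45*, *Pbx4*, *Plk1*, *Rpl4*, *Wfdc21*), G-NHA9Midi replicate 2 (*C3ar1*, *Itgax*, *Ly6c2*, *Mmp8*, *Mrpl45*, *Pim1*, *Rpl4*, *Wfdc21*), G-NHA9Midi replicate 3 (*C3ar1*, *Cd200r3*, *Elane*, *Itgax*, *Mmp8*, *Mrpl45*, *Nup205*, *Pbx4*, *Plk1*, *Serpinb1a*, *Wfdc21*), G-NHA9Midi replicate 4 (*Cd200r3*, *Elane*, *Hlf*, *Mrpl45*, *Nup205*, *Pbx4*, *Pim1*, *Plk1*, *Retnlg*, *Serpinb1a*, *Spi1*) and G-NHA9Midi replicate 5 (*Cbx2*, *Ccrl2*, *Hlf*, *Mmp8*, *Pim1*, *Retnlg*, *Serpinb1a*, *Spi1*). The causes were not tested. Calls were followed in this way only for genes of the rule for named genes. They were not followed for *Klf1*, *Gata1*, *Pf4*, *Hbb-bt*, *Irf7*, *Il1r1*, *Cd34*, *Bcl2l2* and *Atf4*, among others in the text.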

Other observations

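Further gene groups varied in their share of calls. Of the myeloid transcription factors 9.09% were higher and 4.55% lower, beside 8.5% and 11.2% of all tested genes. Of 22 tested myeloid transcription factors, *Cebpd* (49.7 ± 9.74 to 76.3 ± 10.5 CPM, log2 fold change 0.62) and *Spi1*, which encodes PU.1 (165 ± 14.6 to 192 ± 15.4 CPM, 0.22), were higher in G-NHA9Midi cells, and the call of *Spi1* was lost in 4 of the 10 fits that left out 1 library. Leukocyte integrin and adhesion genes had 1 higher (*Itgad*) and 3 lower of 16 (*Itgb3*, *Itgax* at -0.58 and *Selplg* at -0.29 in log2). Of 14 chemokine receptor genes, *Ccrl2* (0.65) and *Cxcr2* (0.62) were higher, and *Ccr7*, which guides dendritic cells to lymph nodes (-1.58), and *C3ar1* (-0.58 in log2) were lower. The called shares were 6.25% higher and 18.8% lower for integrin and adhesion genes and 14.3% each way for chemokine receptor genes.

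The protease inhibitor genes of the *Serpina3* cluster, close copies of one another that could share reads, had 3 of 5 lower. That is 60% of the list, beside 11.2% of all tested genes. *Serpina3g* was at 247, 246, 259, 295 and 244 CPM with G-NHA9 and 121, 142, 129, 177 and 193 CPM with G-NHA9Midi (log2 fold change -0.76, SE 0.22, edgeR adjusted p = 0.014). Of 30 lysosome genes, 3 were lower (10%, near the 11.2% of all tested genes). The protease gene *Lgmn* led them with 312, 269.9, 345, 269 and 185 CPM against 158, 72.1, 107, 176 and 106 CPM (log2 fold change -1.16, SE 0.18, edgeR adjusted p = 1.4e-05). Of 19 serine and one-carbon genes, 3 were higher, with *Mthfd2l* highest (0.74), and *Aldh1l1* was lower (-0.68 in log2). *Hsph1* (-0.83 in log2) was the one called gene of 11 heat shock genes, and its call was lost without G-NHA9 replicate 5 (edgeR adjusted p = 0.085). None of the 16 immediate early genes and none of the 6 sex-linked genes was called by edgeR. At an unadjusted p under 0.05, 2 and 0 of them passed, and DESeq2 called 0 and 0.

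Low genes with large ratios, chosen after their values were seen, held few counts in one condition. *Cuzd1* held 657 counts over the 5 Midi libraries and 1 over the 5 G-NHA9 libraries (ratio 592, 95% exact binomial interval, 106 to 23409). *Cldn13*, a claudin gene of red cell precursors in mice, held 0 and 470, at least 33.3-fold higher in G-NHA9 when 3 counts per Midi library are allowed. *Spon1* rose from 0.0713 ± 0.0335 to 3.06 ± 0.517 CPM (log2 fold change 5.37).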
